A study of Mus musculus with 31 samples.

Results

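miR-193 was read in mouse lung through the 2 mature microRNAs (miRNAs) cut from its hairpin, mmu-miR-193-3p and mmu-miR-193-5p, which are 2 of the 650 miRNA entries on the array. They were selected by name, after the smoke comparison of miR-193-3p was known: its difference averaged over the 4 exposure times was the lowest of the 273 entries tested. For that reason the smoke differences of both arms are given here as a description, with their standard error (SE) and without a test. Tests are given only for other quantities. Of these, the tests between smoke durations and of a smoke effect that differs between durations use 4 weeks smoke values, known at the selection. The lungs came from female BALB/c mice, an inbred strain, kept for 4, 6, 8 or 12 weeks either in cigarette smoke or in room air. Each of the 8 groups has 4 arrays, except 12 weeks smoke with 3, and all received only smoke or air, with no genetic alteration named in the labels. Nothing in the sources used here says that the arrays of a group came from separate animals, so p-values reflect the spread between these samples alone, and that spread may be technical. The labels give neither the age of the mice nor the dose of smoke.

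A miRNA gene is transcribed as a longer RNA and cut to a hairpin, and one strand of the stem is usually kept in an Argonaute protein while the other is degraded. The kept strand pairs, mainly through bases 2 to 8 (the seed), with messenger RNAs and lowers their output. miR-193a-3p has been described as a brake on growth in several tumour types, including lung cancer, and its relative miR-193b, encoded beside miR-365, has been studied in brown fat and muscle. The array's miR-193 is the miRNA now called miR-193a, since RefSeq lists mmu-mir-193 among the synonyms of Mir193a.

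The sequences below, from RefSeq with build GRCm38.p6, show what the arms and their relatives share, with the seed in capitals. All 4 named entries were matched.

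miR-193a-3p: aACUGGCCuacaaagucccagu
miR-193a-5p: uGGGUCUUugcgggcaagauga
miR-193b-3p: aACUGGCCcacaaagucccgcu
miR-365-3p: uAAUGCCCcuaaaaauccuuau

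miR-193a-3p and miR-193b-3p carry the same seed, ACUGGCC, which in the RefSeq table belongs to 2 mature names. They share 19 of 22 bases. Counted from the 5′ end, with the miR-193a-3p base first, the substitutions are U9C, A20G and G21C. Whether the miR-193-3p probes also bind miR-193b-3p was not tested. The 5p arm has another seed, and so does miR-365-3p. The Mir193a hairpin lies on the plus strand at chr11:79711969-79712034, where no other gene of the RefSeq table overlaps it. It is shown with both arms in capitals, the 5p arm first.

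Mir193a hairpin: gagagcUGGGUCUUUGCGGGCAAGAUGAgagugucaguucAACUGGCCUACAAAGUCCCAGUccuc

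Mir365-2 begins 14.4 kb downstream on the same strand. Mir193b, at chr16:13449523-13449601, lies 4.24 kb before Mir365-1, and both are inside the spans of the long non-coding genes Gm32817 and Gm53058. Mir365-1 and Mir365-2 give the same mature miR-365-3p, so its signal cannot be assigned to either place.

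The arrays are 1-colour Agilent arrays with the label Cy3 at the 3′ end of the RNA. They lie on 4 slides of 8 positions, and both groups of all 4 durations are on each of them, with 12 weeks smoke missing on slide 4. On a slide the upper positions held smoke samples, the lower ones controls, and each column 1 duration, so position cannot be told apart from smoke or duration. The 75th percentile of the signal, by which each array was scaled, ranged from 1018 to 3725 scanner units, and 225 to 299 entries were detected per array. Detection of a probe means that at least 50% of its spots on that array are marked well above background. On every array all 6 leukocyte, 5 epithelial, 2 endothelial, 3 multiciliated and 4 smooth muscle or mesenchymal marker miRNAs that were looked for were detected. Array 2 of the 4 weeks smoke group stands apart from the rest on the leading component of the 207 entries detected on every array, which holds 47.5% of their variance, with a score of 9.12. Array 3 of that group has the next score, 4.84, close to the 3.901 and 3.63 of control arrays 4 and 3 of 6 weeks, and control array 4 of 4 weeks is at -5.28. Results that rest on smoke arrays 2 and 3 of 4 weeks are given with and without them.

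miR-193-3p was measured by 2 probes with 10 spots each, and the brighter one was above background on all 31 arrays. The dimmer one was above background on 30, the exception being array 2 of 4 weeks smoke. Before scaling, the brighter probe gave from 62.4 scanner units, on that array, to 1352 units, on control array 2 of 6 weeks. The 2 probes moved together over the 31 arrays (Pearson r 0.995, as a description), and spots of the brighter probe on one array differed by a median SD of 0.05 log2. All further levels are log2 of the scaled signal of the brighter probe, so 0 is an array's 75th percentile over the 385 probes detected on every array.

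At 4 weeks the control arrays 1 to 4 read -1.14, -1.48, -1.34 and -1.19, and the smoke arrays 1 to 4 read -1.91, -4.27, -2.95 and -1.92. Every smoke array was below every control array, but the smoke arrays were far from alike. Such a full separation downward was seen in 6.23% of the 273 entries at 4 weeks. The difference was -1.48 ± 0.36 log2 (SE, 4 against 4 arrays), a 2.78-fold lower mean under smoke, where the median of all entries was 0.17. It was the second lowest of all 273 differences at 4 weeks. This and every later SE rests on 1 spread shared by all 8 groups, not on the compared groups alone. At 4 weeks the SD was 0.15 log2 in control and 1.12 in smoke, so the SE does not show how uneven these smoke arrays were. Smoke arrays 2 and 3 lay 7.90-fold and 3.18-fold below the control mean, while arrays 1 and 4 lay 1.54-fold and 1.55-fold below it. Without arrays 2 and 3 the difference was -0.63 ± 0.30 log2, and without array 2 alone it was -0.97.

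At 6 weeks the control arrays 1 to 4 read -1.56, -1.46, -2.33 and -2.16, and the smoke arrays 1 to 4 read -2.19, -3.02, -2.11 and -2.15. Control arrays 3 and 4 overlapped the smoke range, and smoke array 2 alone was below every control array. The difference was -0.49 ± 0.36 log2 (SE, 4 against 4), or 1.40-fold lower under smoke, and -0.27 without smoke array 2.

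At 8 weeks the control arrays 1 to 4 were close together at -1.48, -1.43, -1.43 and -1.28. The smoke arrays 1 to 4 read -2.24, -1.24, -1.11 and -2.37, with arrays 1 and 4 below every control array and arrays 2 and 3 above every one. The difference of the means was -0.33 ± 0.36 log2 (SE, 4 against 4), smaller than its error. Leaving out 1 array at a time moved it between -0.12, without smoke array 4, and -0.54, without smoke array 3.

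At 12 weeks the control arrays 1 to 4 read -1.30, -1.60, -1.42 and -1.46 and the smoke arrays 1 to 3 read -2.59, -2.40 and -2.15. All 3 smoke arrays were below all control arrays, with 0.22 log2 as their SD. The difference was -0.94 ± 0.39 log2 (SE, 3 against 4), 1.91-fold lower under smoke and the lowest of all 273. Full separation downward was seen in 25.6% of entries at 12 weeks, so the separation alone does not set miR-193-3p apart there.

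**Figure D1:**
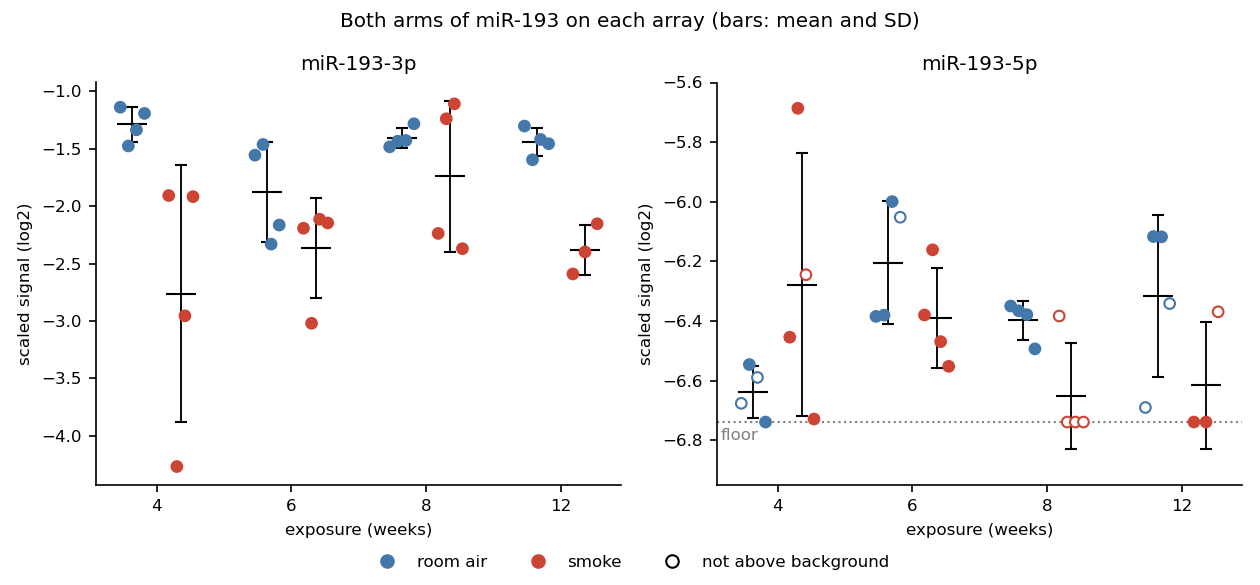
Scaled signal (log2) of miR-193-3p (left) and miR-193-5p (right) on each array against weeks of exposure, room air in blue and smoke in red. Bars are group means with SD, and open points are arrays on which the probe was not above background. The miR-193-3p smoke arrays of 4 weeks run from -1.91 to -4.27 and those of 8 weeks lie on both sides of the controls, while most miR-193-5p values sit near the floor at -6.74.

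Averaged over the 4 durations with equal weight, miR-193-3p was -0.81 ± 0.18 log2 (SE, 15 smoke and 16 control arrays), 1.75-fold lower under smoke. This is the value that selected it. In the same averaged comparison 27.8% of the 273 entries passed an adjusted p of 0.05 in either direction, and the shares were 39.6% at 4 weeks, 8.06% at 6 weeks, 11% at 8 weeks and 9.52% at 12 weeks. Those shares are background for a chosen miRNA, and nothing is read from them for miR-193-3p. Without smoke arrays 2 and 3 of 4 weeks the average was -0.60 ± 0.13 log2. It was the lowest of the 273 there too, which is no independent support, since the remaining arrays also gave the value that selected miR-193-3p. Of all 15 smoke arrays, 6 were below every control array of any duration, 1 was above every one, and the others overlapped. In whole lung RNA, fewer cells of a type that holds a miRNA and less of it per cell cannot be told apart.

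In order from high to low, the group means ± SD were 4 weeks control (-1.29 ± 0.15), 8 weeks control (-1.41 ± 0.09), 12 weeks control (-1.44 ± 0.12), 8 weeks smoke (-1.74 ± 0.66), 6 weeks control (-1.88 ± 0.43), 6 weeks smoke (-2.37 ± 0.44), 12 weeks smoke (-2.38 ± 0.22) and 4 weeks smoke (-2.76 ± 1.12), each over 4 arrays but 3 for 12 weeks smoke. Of the 7 steps between neighbours, only that from 6 weeks control to 6 weeks smoke was larger than the larger SD of its pair, and the ranges of that pair overlapped, as did those of the other 6. Among control arrays the durations did not pass a moderated F test of limma, a linear model fitted on all 273 entries (adjusted p 0.519), though they did when only the control arrays were fitted (adjusted p 0.0489). In the first of these tests 6.96% of entries passed. Among smoke arrays, where 3.30% of entries passed, the adjusted p of miR-193-3p was 0.270. A smoke effect that differed between durations, which 7.33% of entries showed, was not called either, with an adjusted p of 0.230, or 0.635 without smoke arrays 2 and 3 of 4 weeks. The low 4 weeks value was known when the miRNA was chosen. None of these 3 tests shows that the levels were equal: the largest gap between control means was 0.59 log2 and that between smoke means 1.02 log2.

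The spread of miR-193-3p was itself large. Its residual SD was 0.53 log2, the 6th largest of the 207 entries detected on every array, against a median of 0.21 over the 273. Within groups the SD was 0.24 log2 among control arrays and 0.72 among smoke arrays. Slides gave the same picture of unequal arrays. Each smoke array has 1 control array of its duration on its slide, and in 11 of these 15 pairs miR-193-3p was lower in smoke. The pairs ran from -2.79 log2, at 4 weeks on slide 2, to 0.32 log2, at 8 weeks on slide 3. The mean of the pairs on slides 1 to 4 was -0.79, -1.28, -0.45 and -0.60 log2, the last over 3 durations. All 4 slides were thus negative on average. The 4 pairs in which smoke was higher were at 6 and 8 weeks on slides 2, 3 and 4.

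**Figure D2:**
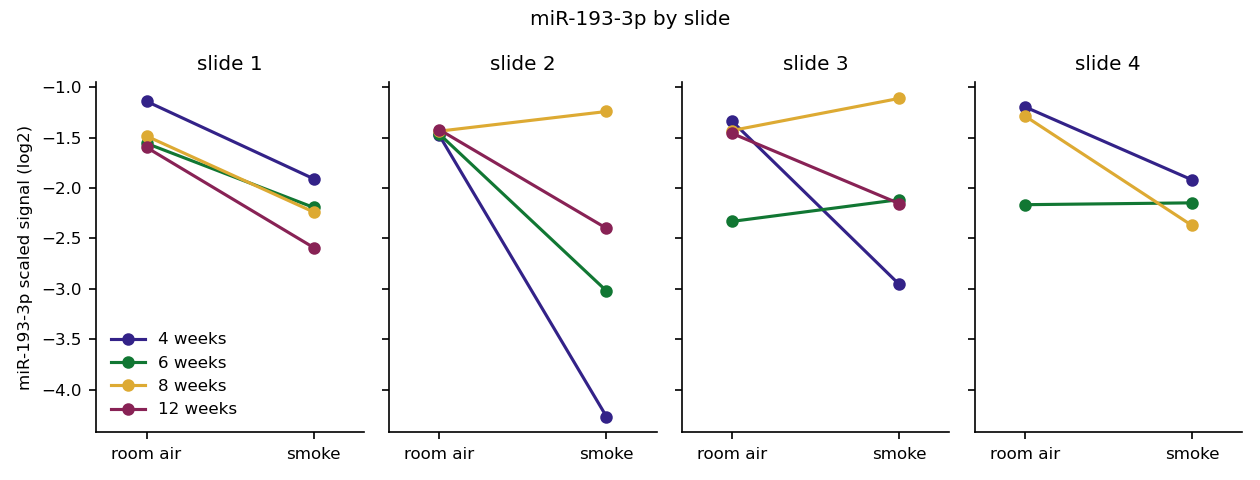
Scaled signal (log2) of miR-193-3p for the room air and smoke array of each duration on the same slide, joined by a line, in 1 panel per slide. The line falls in 11 of 15 pairs, with the steepest fall at 4 weeks on slide 2 (-2.79 log2) and rises up to 0.32 log2 at 8 weeks on slide 3.

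miR-193-5p, the other arm of the same hairpin, was close to the limit of the array. It has 4 probes with 5 spots each. Of these, 2 were above background on no array, 1 on 7 arrays and the brightest on 20 of 31. The brightest probe read from 10.9 to 44.7 scanner units before scaling, and on 6 arrays its scaled signal was at the floor of -6.74 log2, the lowest level treated as measured. Values at the floor have no order. The brightest probe was above background on 2 of 4 control and 3 of 4 smoke arrays at 4 weeks, on 3 and 4 at 6 weeks, on 4 and 0 at 8 weeks, and on 2 of 4 and 2 of 3 at 12 weeks. The one contrast in detection was thus at 8 weeks, where the control arrays 1 to 4 read -6.35, -6.37, -6.38 and -6.49. The smoke arrays 1 to 4 of 8 weeks read -6.38 and 3 times the floor, with array 1 not well above background either. The 8 weeks smoke arrays were also dimmer as a whole, with a 75th percentile of 1229 to 1681 scanner units against 2337 to 3472 in control and with 226 to 247 entries detected against 253 to 291. The part of that drop in the detection of miR-193-5p was not tested. With each smoke array set at its lowest above-background signal or at the probe's value, whichever is larger, the control mean was 1.11-fold higher. That is not a strict limit, since a probe can miss the mark at a higher signal. On control array 4 of 6 weeks the probe was not above background at -6.05, while the lowest above-background signal there was -6.20.

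The smoke differences of miR-193-5p were 0.36 ± 0.16 log2 (SE) at 4 weeks, -0.19 ± 0.16 at 6 weeks, -0.25 ± 0.16 at 8 weeks and -0.30 ± 0.17 at 12 weeks. Their average was -0.09 ± 0.08 log2, and smoke and control arrays overlapped at every duration. The 4 weeks value rested on smoke arrays 2 and 3, since the smoke arrays 1 to 4 read -6.45, -5.69, -6.25 and -6.73 against -6.68, -6.55, -6.59 and the floor in control. Without smoke arrays 2 and 3 it was 0.05 log2. After a normexp background correction the sign turned at 4 weeks, to -1.09 log2, where the median of all entries was -0.76, and at 8 weeks, to 0.48 log2, where it was 0.22. In the F tests miR-193-5p was not called: its adjusted p was 0.188 among control arrays, 0.332 among smoke arrays and 0.111 for a smoke effect that differed between durations. The last of these was 0.037 by the F test without smoke array 4 of 4 weeks, where 65 of the 273 entries passed. It was 0.0295 without scaling, where 133 passed. Among control arrays the adjusted p of the F test was 0.039 with scaling by all probes, where 84 passed.

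Both arms come from one precursor, and their relation was tested on the deviations of each array from its group mean. The deviations ran opposite ways over the 31 arrays, with Pearson r -0.75 (permutation p 1e-05, the smallest that 100000 resamples can give, two-sided) and Spearman rho -0.66 (permutation p 0.00011). Adjusted over these 2 measures the values were 2e-05 and 0.00011. The permutations moved deviations freely between groups, although those of one group are tied through its mean and groups spread unequally. For miR-193-3p the SD was 0.24 log2 among control and 0.72 among smoke arrays. These p-values may thus be too small. Under this scaling the median r with miR-193-3p was -0.555 over the 206 other entries detected on every array, and 107 lay below -0.5. By r, miR-193-5p was 198th from the highest of 272 entries compared. The permutation test is against no relation at all, so nothing particular to the 2 arms is read from it. The 31 include the 11 arrays on which the miR-193-5p probe was not above background and the 6 at the floor. Over the 20 arrays on which it was detected, r was -0.89. Without the 2 arrays farthest from the median of miR-193-3p, which are smoke arrays 1 and 2 of 4 weeks, r was -0.63. Within slides 1 to 4 it was -0.74, -0.92, -0.50 and -0.72. By the mean of all probes r was -0.81, by the scanner's sum per miRNA -0.52 and in the deposited series table -0.50. It was weaker, and past no threshold, after quantile scaling (-0.34) and with the 75th percentile over all probes (-0.15). The sign turned without any scaling (0.50) and after the normexp correction (0.18).

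The related entries were miR-193b-3p and miR-365-3p, each detected by both probes on all 31 arrays. Their smoke differences were tested with limma over all 273 entries. Of the 2, with all arrays in the fit, only miR-365-3p was called, at 4 weeks, where 39.6% of the 273 entries were called. miR-193b-3p, which shares the seed, had a mean difference of -0.14 ± 0.11 log2 (SE, 15 against 16 arrays, limma adjusted p 0.378, 95% interval -0.36 to 0.09). Without smoke array 3 of 8 weeks it was -0.22 log2 and was called (limma adjusted p 0.038), as 91 of the 273 entries were. At 4, 6, 8 and 12 weeks it was -0.11, -0.05, -0.02 and -0.37 log2, with adjusted p of 0.702, 0.942, 0.997 and 0.320 by limma. The 4 weeks value, not called in any of these fits, was -0.44 ± 0.24 log2 without smoke arrays 2 and 3, -0.31 without array 2, 0.02 without array 4 and -0.95 after the normexp correction. Without arrays 2 and 3 it thus lay beside the -0.63 ± 0.30 of miR-193-3p, and no test of the difference between the 2 miRNAs was made.

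miR-193b-3p was even among control arrays, with a within-group SD of 0.09 log2, and uneven among smoke arrays, with 0.44. At 8 weeks the smoke arrays 1 to 4 read -4.54, -4.64, -3.26 and -4.36, and array 3 lay above all other arrays of the study. At 12 weeks the smoke arrays 1 to 3 read -4.87, -4.85 and -4.19, again with array 3 highest. The same 2 arrays were the highest of their groups in miR-133a-3p, a miRNA of striated muscle, at -0.62 and -1.75. The summed striated muscle markers, of which 3 of the 6 on the array were detected on every array and miR-208a-3p and miR-499-5p on none, ran from 0.43 to 2.84 log2 over the 8 weeks smoke arrays and from 0.66 to 1.50 over those of 12 weeks. Control array 4 of 4 weeks had a miR-133a-3p level of -0.63 too, with miR-193b-3p at -4.25, the mean of its group. Smoke array 3 of 8 weeks and control arrays 4 and 1 of 4 weeks were the highest of the study in miR-133a-3p, at -0.62, -0.63 and -1.26. The same arrays were also the highest in miR-193-3p, at -1.11, -1.19 and -1.14. Next in miR-193-3p was smoke array 2 of 8 weeks, at -1.24, with miR-133a-3p at only -2.50. The part of muscle RNA in the miR-193b-3p and miR-193-3p values was not tested.

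miR-365-3p, whose genes neighbour both miR-193 genes, moved the other way from miR-193-3p at 4 weeks. Its control arrays 1 to 4 read -0.97, -0.87, -0.99 and -1.10 and its smoke arrays -0.76, 0.19, -0.33 and -0.73. All smoke arrays were above all control arrays, as they were in 23.8% of entries at that time. The difference was 0.57 ± 0.15 log2 (SE, 4 against 4, limma adjusted p 0.00797, 95% interval 0.26 to 0.89), a 1.49-fold rise against a median of 0.17 over all entries. At 4 weeks 39.6% of the 273 entries were called in either direction. The rise was highest on the arrays where miR-193-3p was lowest, and without smoke arrays 2 and 3 it was 0.24 log2 with an adjusted p of 0.375 by limma. It was also not called without scaling (0.50 log2, adjusted p 0.330) or after the normexp correction (0.34 log2, adjusted p 0.120). At 6, 8 and 12 weeks the differences were 0.03, -0.13 and -0.18 log2, and the average was 0.08 ± 0.08 log2, with limma adjusted p of 0.971, 0.708, 0.523 and 0.486. A miR-365-3p smoke effect that differed between durations had an adjusted p of 0.068 by limma.

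**Figure D3:**
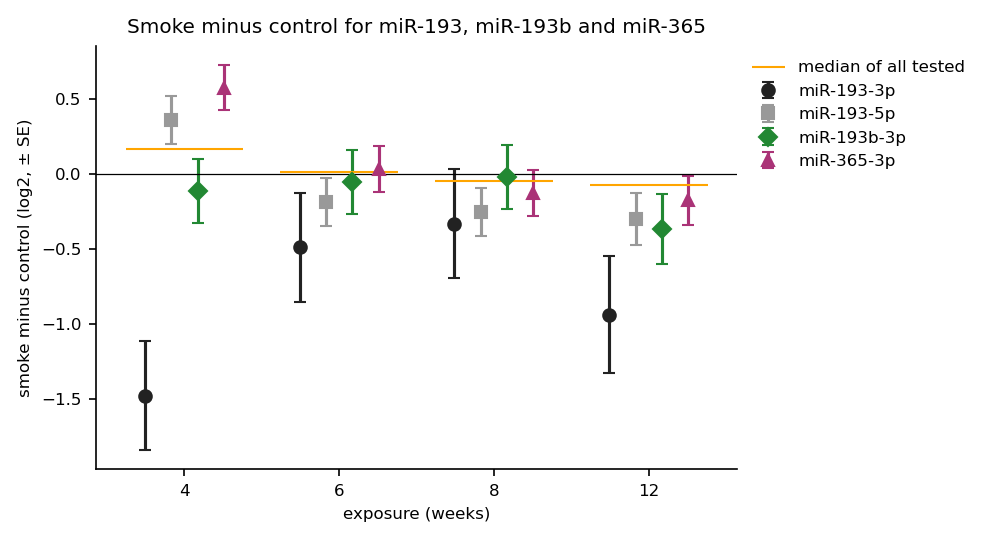
Smoke minus control difference (log2, points, with SE bars) at each duration for miR-193-3p, miR-193-5p, miR-193b-3p and miR-365-3p, with the median over all 273 tested entries as an orange line. Of the miRNAs shown, miR-193-3p lies lowest at each duration, from -1.48 at 4 weeks to -0.33 at 8 weeks, and miR-365-3p is highest at 4 weeks, at 0.57.

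The entries whose levels were most like miR-193-3p over the 31 arrays were miR-24-1-5p (Pearson r 0.97), miR-24-2-5p (0.94), miR-29a-5p (0.92), miR-142-3p (0.90) and miR-32-5p (0.90). These are descriptions over 272 entries compared, on arrays that share their scaling, and carry no test. miR-24-1-5p and miR-24-2-5p are the less abundant arms of the miR-24 hairpins, miR-29a-5p is the less abundant arm of miR-29a, and miR-142-3p is a miRNA of blood cells. By deviations from group means, which leave out the differences between groups, the 5 most like were miR-24-1-5p (0.97), miR-208b-3p (0.92), miR-29a-5p (0.92), miR-27a-3p (0.91) and miR-24-2-5p (0.91). miR-208b-3p is encoded within a heart and slow muscle myosin gene, and miR-27a and miR-24-2 come from one cluster. The relation to miR-24-1-5p was similar on every slide, with r from 0.94 to 0.98. It stayed between 0.95 and 0.98 under the other scalings and in the deposited series table, and was 0.57 after the normexp correction, where 18 entries lay closer to miR-193-3p.

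The 2 entries from the miR-24 hairpins that track it are shown with their seed in capitals. They share the seed UGCCUAC, which is not that of miR-193-3p.

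miR-24-1-5p: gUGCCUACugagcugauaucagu
miR-24-2-5p: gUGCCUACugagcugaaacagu

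On the 4 weeks smoke arrays 1 to 4, miR-24-1-5p read -3.68, -4.97, -4.30 and -3.67, low on the same 2 arrays as miR-193-3p. Its smoke difference there was -0.76 log2. Of the relatives, miR-365-3p had the strongest opposite course, with r of deviations of -0.87 (-0.64 to -0.97 within slides), and miR-193b-3p had r -0.16. For miR-193b-3p the slides did not share a sign, with r from -0.83 on slide 2 to 0.72 on slide 3, and without the 2 farthest arrays it was 0.20. As with the 5p arm, the value for miR-365-3p was tied to the scaling: it was -0.23 with scaling by all probes, 0.49 without scaling and -0.86 in the deposited series table. Over the 206 other entries detected on every array, 33 had r above 0.5 and 107 below -0.5 with miR-193-3p. With scaling by all probes these counts were 84 and 10, and without scaling 158 and 0. How common a negative relation to miR-193-3p was thus changed with the scaling, and nothing particular to miR-365-3p is read from it.

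**Figure D4:**
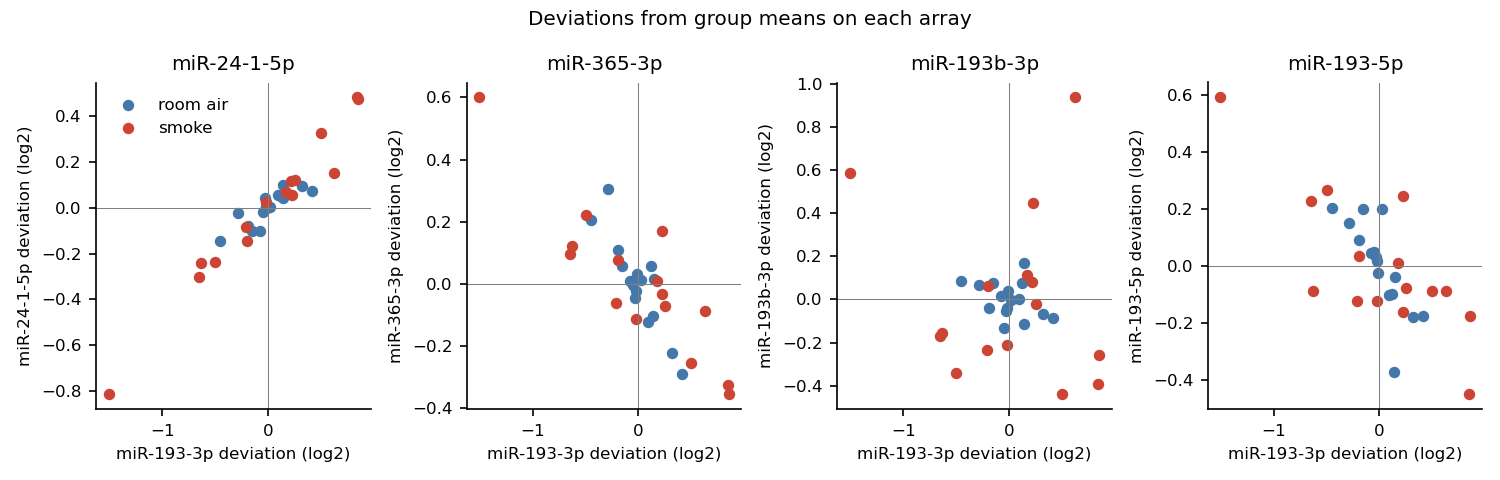
Deviation of each array from its group mean (log2) for miR-193-3p on the horizontal axis and miR-24-1-5p, miR-365-3p, miR-193b-3p and miR-193-5p on the vertical axes, with room air arrays in blue and smoke arrays in red. miR-24-1-5p follows a rising line (r 0.97), miR-365-3p and miR-193-5p a falling one (r -0.87 and -0.75) and miR-193b-3p neither (r -0.16). The point at the far left of every panel is smoke array 2 of 4 weeks.

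miR-193-3p also followed the leading component of the detected entries. Its deviations had r -0.87 with those of the component score, and its loading was the second lowest of the 207. The component was computed from entries that include miR-193-3p, and entries that vary widely weigh more in it. It was computed under the reported scaling only, so these values are a description. Several marker sums, as log2 of the summed scaled signal, moved with miR-193-3p or against it. The 6 leukocyte miRNAs summed to 3.22 to 3.27 on the 4 weeks control arrays and to 3.102, 2.57, 2.52 and 3.14 on smoke arrays 1 to 4. The 3 multiciliated cell miRNAs summed to 0.12 to 0.29 on those control arrays and to -0.01, -0.65, -0.40 and -0.10 on the smoke arrays. The sum of the 5 epithelial miRNAs went the other way, at 2.56 to 2.72 in control and 2.77, 3.08, 2.90 and 2.75 in smoke. Over all arrays r with the miR-193-3p deviations was 0.40 for leukocyte, 0.74 for multiciliated and -0.77 for epithelial markers. It was -0.63 for endothelial, -0.61 for smooth muscle and mesenchymal, -0.40 for erythroid and 0.29 for striated muscle markers. For squamous and liver markers it was -0.07 and -0.02. The median over the 206 other entries detected on every array was -0.555, so nothing particular to a list is read from these values. For the other lists the 4 weeks control and smoke ranges overlapped: 5.72 to 6.06 and 6.00 to 6.11 for erythroid, 4.77 to 4.99 and 4.87 to 4.97 for endothelial, 2.35 to 2.51 and 2.49 to 2.69 for smooth muscle and mesenchymal, 0.86 to 2.76 and 0.71 to 0.90 for striated muscle, and -2.82 to -1.05 and -2.96 to -2.51 for squamous miRNAs. The liver miRNA miR-122-5p, detected on 11 of the 31 arrays, was at -5.50 and -4.70 on smoke arrays 2 and 3 of 4 weeks and at the floor on every control array of that duration. Members of one list did not move as one. Among leukocyte miRNAs at 4 weeks only miR-142-3p (-1.28 log2) and miR-142-5p (-1.06) were lower. Higher were miR-223-3p (0.76), miR-155-5p (0.86), miR-342-3p (0.86) and miR-150-5p (0.36). Multiciliated miR-34c-5p was at -0.64, miR-449a-5p at -0.09 and miR-34b-3p at 0.27. Among epithelial ones miR-141-3p was at -0.93 and miR-200a-3p at -0.28. Against these, miR-200b-3p was at 0.43, miR-200c-3p at 0.57 and miR-429-3p at 0.37. Lists whose sums overlapped still held members called lower at 4 weeks by limma. They were miR-133a-3p (-0.93 log2) and miR-133b-3p (-0.98) of muscle, miR-203-3p (-0.72) and miR-205-5p (-1.40) of squamous cells and miR-144-3p (-1.31) of red cells. The other red cell miRNA, miR-451, was at 0.11 and not called. By contrast miR-199a-3p (0.22), a mesenchymal or smooth muscle marker, was called higher. Of all 273 entries, 39.6% were called in either direction at that duration. What part the cell make-up or the array had in the miR-193-3p values was not tested.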

How the data were processed

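The members and lists were chosen with earlier results of these data known. Spot values are scanner intensity, from which Feature Extraction 10.7.3.1 had subtracted background, per the file headers, with arrays left on their own scale. The marks for outlier and above-background spots come from the same software. The deposited series table holds log2 values that the authors had normalized (the sources used here do not give how), and its correlation with the scaled values was 0.981 to 0.989 per array. Outlier spots (297 to 655 of 13000 per array) were left out, spots of a probe averaged, each array divided by its 75th percentile over 385 probes detected on all arrays, low signals raised to a floor (log2 -6.74), and the brightest probe taken per entry. Of 650 entries, 273 were detected on 75% of the arrays of a group and fitted with limma 3.58.1 in R 4.3.3, with 1 mean per group and Benjamini-Hochberg adjustment over the 273. The number of arrays limits the precision. The fit was tested on simulated data. Titles gave the groups and replicate numbers, and no arrays held identical values. Named are the 2 members, the miR-193b and miR-365 entries, the 5 entries most like miR-193-3p by either measure, and marker miRNAs a result turns on. Markers of erythroid, liver and squamous cells were also looked for. Where the design named the mean signal for the normexp correction (offset 50), the median signal was used, since the files used here have no such column.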

Additional observations from a re-analysis of the deposited data

Results flagged for a closer look

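miR-193-3p on smoke array 2 of 6 weeks was far below the other 3 arrays of its group, at -3.02 log2 with the nearest at -2.19, a gap of 0.91 of the whole range of the group. miR-193-5p on smoke array 1 of 8 weeks was at -6.38 log2 while the other 3 lay at the floor, so that the gap of 1 is the whole range, and none of the 4 was well above background. In all, 28 groups of 4 arrays were examined for a far sample, and chance gives about 1 in 20.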

How the results depend on the processing

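Of 755 alternative values for 17 results, 735 kept their direction and their side of the threshold, or moved by less than the spread between arrays. Many of them could not change, so this share is no measure of how firm the results are. Leaving out an array of another duration, for example, cannot alter the difference at a given duration. miR-193-3p averaged over durations ran from -0.96 log2 without scaling to -0.60 without smoke arrays 2 and 3 of 4 weeks. Without those arrays its 4 weeks difference was -0.63, and without scaling its 8 weeks difference was -1.15, where the median of all entries was -0.86. The control durations of miR-193-3p passed at an adjusted p of 0.0489 with only the control arrays in the fit. The 4 weeks difference of miR-193-5p was 0.12 by the mean of all probes, 0.82 by the scanner's sum per miRNA, -1.09 after normexp and 0.046 without those 2 arrays. Its 8 weeks difference was -1.03 without scaling, -1.16 by the scanner's sum and 0.48 after normexp, and its 12 weeks difference -0.048 after quantile scaling. With a floor 4 times higher miR-193-5p gave no value. In the F test its control durations passed with scaling by all probes (adjusted p 0.039, with 84 of the 273 entries passing) and without scaling (0.0244, with 151). Its smoke effect by duration passed without scaling (0.0295, with 133 entries passing) and by the scanner's sum (0.0265, with 15). Leaving out 1 array, that adjusted p ranged from 0.037 to 0.287. The arm-to-arm r was -0.15 with scaling by all probes, -0.34 after quantile scaling, 0.50 without scaling and 0.18 after normexp. The causes were not tested. The count of entries called was 12 to 112 in the averaged comparison (76 as reported), 4 to 113 at 4 weeks (108), 2 to 33 at 6 weeks (22), 3 to 203 at 8 weeks (30), 4 to 47 at 12 weeks (26), 3 to 151 among control durations (19), 0 to 21 among smoke durations (9) and 0 to 133 for a smoke effect by duration (20). The limma counts of 0 were among smoke durations without scaling (19 at an unadjusted p of 0.05) and after normexp (5), and by duration after normexp (37). With the replicate block, miR-193-3p averaged -0.80 log2, and no call of either arm changed. Deviations of same-numbered arrays correlated at a mean of 0.009 (-0.76 to 0.83), against -0.003 for other pairs, and over 0.1 in 46 of 105 pairs. For arrays of one slide the mean was 0.084, against -0.028 for other pairs, and 55 of 105 were over 0.1. At 4, 6 and 8 weeks the replicate number is also the slide number. These values cannot decide whether the numbers pair the samples, and the main fit did not pair them. Signal over background limits miR-193-5p, not miR-193-3p.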
